A study of Mus musculus with 9 samples.

Results

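The Wnt ligands, their Frizzled and Lrp receptors, the R-spondins, the secreted antagonists, the Axins and the TCF/LEF transcription factors were followed through the differentiation of 3T3-L1 cells into adipocytes. Members were the genes whose symbol begins with Wnt, Fzd, Dkk or Rspo and a number, or with Tcf7, or is Sfrp1 to Sfrp4, Lrp5, Lrp6, Axin1, Axin2 or Lef1. The rule found 43 of the 19094 genes listed in at least 1 sample. There were 16 Wnt ligands, 11 receptors, 4 R-spondins, 6 antagonists, 2 Axins and 4 TCF/LEF factors. RNA was sequenced at day 0, day 4 and day 8 with 3 samples per day. 3T3-L1 is an established mouse fibroblast line that stores lipid after hormonal induction, and the labels name no genetic change in any sample. Day 0 cells were near-confluent preadipocytes before induction. Dexamethasone, IBMX and insulin were then given for 2 days, followed by medium with insulin as the only hormone until collection at day 4 or day 8. The 3 comparisons were day 4 versus day 0 (early phase), day 8 versus day 4 (late phase) and day 8 versus day 0 (whole process), and they share samples. Cells of each stage were pooled and the methods speak of RNA mixtures, so that p-values measure the spread between these samples, which may be technical. A single line in culture is also what limits the cells as a model of fat tissue. In bulk RNA, fewer cells of a type and less RNA per cell cannot be told apart. The totals were between 18216114 and 20452144 expected counts per sample, and only counting error is covered by them.

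Wnt proteins are secreted lipid-modified signals. In the canonical arm a Wnt binds a Frizzled receptor together with Lrp5 or Lrp6, the Axin complex stops marking beta-catenin for destruction, and beta-catenin enters the nucleus and joins TCF/LEF factors at target genes. Sfrp proteins bind Wnts, Dkk1 and Dkk2 bind Lrp5 and Lrp6, and R-spondins raise the amount of receptor at the cell surface. In preadipocytes canonical Wnt signalling, for which Wnt10b is the best known ligand, is known to hold back Pparg and Cebpa, the transcription factors that drive the adipocyte programme. Wnt5a is best known for beta-catenin-independent signalling.

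The identity of the cells was checked with marker lists. All 12 adipocyte markers rose in the early phase, and 3 of them (Cfd, Lep and Slc2a4) rose further in the late phase. Their summed level in FPKM was 146 ± 2.82 before induction, 7551 ± 1354 at day 4 and 9858 ± 469 at day 8 (SD, n = 3, as for all values with ± below). FPKM is the deposited level scaled to gene length and sample depth, and it is the unit used wherever levels of different genes are compared. The most abundant of these markers was Lpl, a lipase, at day 0 and Fabp4, a fatty acid binding protein, at day 4 and day 8. Of 10 preadipocyte markers, Dlk1 and Ly6a fell and Cd24a rose in the early phase, and Dlk1 rose and Cd24a fell in the late phase. The list summed to 5451 ± 127, 3912 ± 169.7 and 4528 ± 75.6 FPKM. Vim, a filament protein, was the most abundant at day 0 and day 4, and the collagen gene Col1a1 at day 8. The labels' extraction text names DRG, a tissue of sensory neurons, although the samples are labelled as the cell line. The 12 markers of sensory neurons and glia summed to 2.09 ± 0.16, 2.16 ± 0.101 and 2.22 ± 0.114 FPKM at day 0, 4 and 8. The neuronal channel gene Scn10a was listed in 1 of 9 samples. Snap25, a synaptic gene of that list, rose in the early phase from 0.0267 ± 0.0462 to 1.12 ± 0.0473 FPKM. The macrophage list summed to 3.38 ± 0.602, 2.11 ± 0.155 and 2.77 ± 0.445 FPKM. Its most abundant gene was Lyz2 at day 0 and Cd68 at day 4 and day 8, and Lyz2 fell in the early and rose in the late phase. The endothelial list summed to 0.903 ± 0.157, 0.273 ± 0.0351 and 0.35 ± 0.0173 FPKM. Its most abundant gene was Vwf at day 0 and Pecam1 at day 4 and day 8, and Vwf fell in the early phase. Pecam1 had a late log2 fold change of 1.008, and its call was lost without replicate 2 or 3 of day 4 or replicate 1 or 3 of day 8, with a lowest value of 0.81. Among bone and muscle fate markers, summing to 78.6 ± 3.97, 37.6 ± 1.97 and 36.2 ± 1.7 FPKM, Sox9 was the most abundant and fell, Dmp1 fell and then rose, and Myod1 was listed in no sample. The early call of Sox9 was lost without replicate 3 of day 4. The part of these markers in the values below was not tested.

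Of the 43 members, 18 reached a mean of 1 FPKM at some day, 11 of them reached 10 FPKM, and 23 passed the filter on low counts and were tested. The 11 were Wnt5a, Fzd1, Fzd2, Fzd4, Lrp5, Lrp6, Sfrp2, Axin1, Lef1, Tcf7l1 and Tcf7l2. The remaining 20 members were too low to test. They had between 1 and 76 expected counts over all 9 samples together. A gene was called when edgeR's quasi-likelihood test gave a Benjamini-Hochberg adjusted p under 0.05 over all 13154 genes tested and the fold change was above 2. In the early phase 4 of the 23 tested members rose (Lrp5, Lef1, Fzd4 and Dkk2) and 4 fell (Sfrp2, Fzd1, Dkk3 and Rspo2), while 9.77% of all tested genes rose and 7.98% fell. In the late phase 4 rose (Sfrp2, Rspo3, Rspo2 and Fzd4) and 1 fell (Lef1), beside 4.24% and 2.81% of all genes. Over the whole process 3 rose (Fzd4, Rspo3 and Dkk2), beside 10.3% of all genes. None fell over the whole process by edgeR's quasi-likelihood test, beside 7.7% of all genes, and 2 members were lower at an unadjusted p under 0.05. DESeq2, edgeR's exact test and limma also gave 0 there. The median log2 fold change of the 23 members was 0.05, 0.16 and 0.06 in the early, late and whole comparison, and that of all tested genes was 0.02, -0.01 and -0.02. A member that passed the filter only through its high days had to differ, so these counts are a description. With glmTreat, which tests against a fold of 2 itself, Lrp5, Lef1 and Sfrp2 kept their early calls, and the early calls of Fzd1, Fzd4, Dkk2, Dkk3 and Rspo2 and the late calls of Fzd4, Rspo2 and Rspo3 were lost. The NCBI gene identifiers in the files are Sfrp2 (20319), Lrp5 (16973), Lef1 (16842), Fzd1 (14362), Fzd4 (14366), Dkk2 (56811), Dkk3 (50781), Rspo2 (239405) and Rspo3 (72780).

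**Figure D1:**
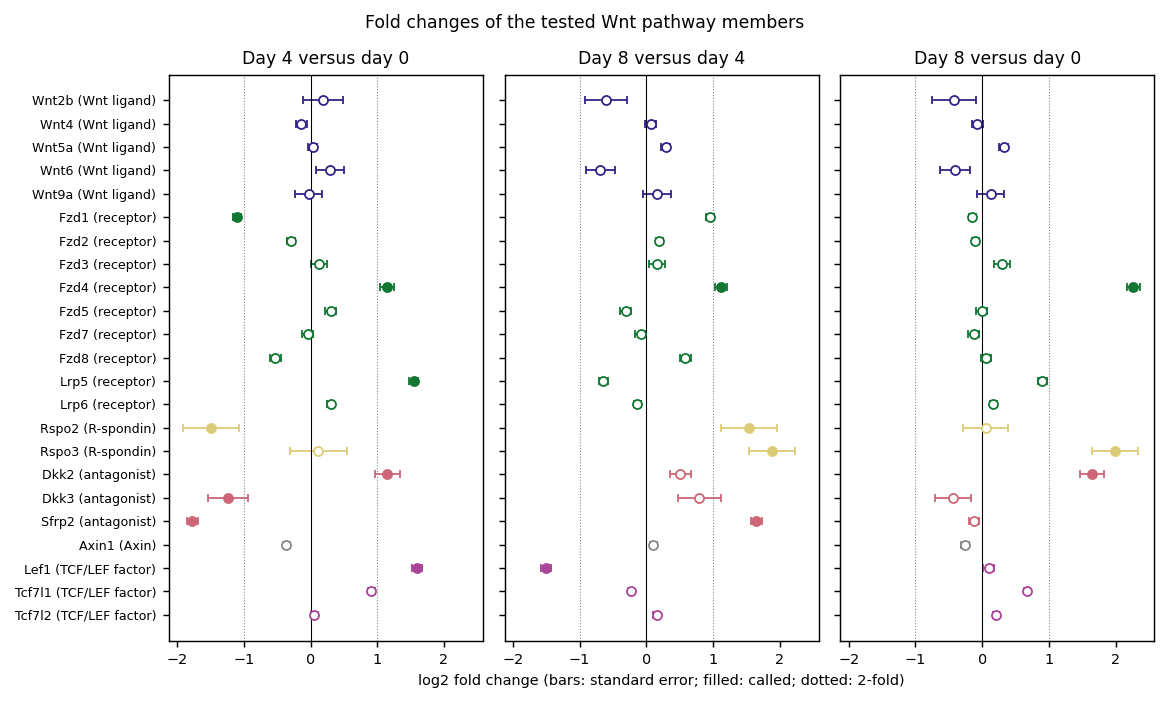
Fold changes of the 23 tested members, grouped by role. The x axis is the log2 fold change in each comparison, circles are edgeR estimates with their standard errors as bars, filled circles are called, and dotted lines mark 2-fold. The 5 Wnt ligands lie between the dotted lines in all 3 panels, Sfrp2 and Lef1 lie on opposite sides in the early and the late phase, and Fzd4 lies to the right in all 3.

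None of the 5 tested Wnt ligands was called by edgeR's quasi-likelihood test in any of the 3 comparisons, and none was called with any other tool or scaling tried. At an unadjusted p under 0.05, 0 ligands differed in the early phase, 1 was higher (Wnt5a) and 1 lower (Wnt6) in the late phase, and 1 was higher (Wnt5a) over the whole process. Wnt5a had the highest FPKM of the ligands and took 63.5% of their summed FPKM over all samples. Its level was 11.3, 11.8 and 12.9 FPKM in the 3 samples of day 0, 12.4, 11.4 and 11.6 at day 4, and 15.0, 13.7 and 12.6 at day 8. The day 0 and day 4 samples overlapped, and the day 8 samples reached the highest values while overlapping day 0. The log2 fold change of Wnt5a was 0.32 over the whole process (SE 0.07, adjusted p = 0.000574), a 1.25-fold difference that was not called.

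Wnt4, a ligand known for kidney and gonad development, was second among the ligands at 4.43 ± 0.258, 3.84 ± 0.207 and 3.89 ± 0.19 FPKM at day 0, 4 and 8. Its log2 fold changes lay between -0.14 and 0.06, with adjusted p-values of 0.147, 0.569 and 0.424 in the early, late and whole comparison. Wnt6 was listed at 1.45, 2.42 and 2.30 FPKM at day 0, at 1.66, 2.70 and 2.80 at day 4, and at 1.49, 1.51 and 1.29 at day 8. Replicate 1 of day 0 and replicate 1 of day 4 stood well below the others of their day, near the day 8 values. The late log2 fold change of Wnt6 was -0.69 (SE 0.22, adjusted p = 0.0164) and was not called. Wnt9a was at 0.643 ± 0.131, 0.607 ± 0.0493 and 0.657 ± 0.0874 FPKM, and Wnt2b was at 0.22 ± 0.01, 0.243 ± 0.0709 and 0.153 ± 0.0231 FPKM, with no call for either.

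Wnt10b, the canonical ligand best known in preadipocytes, was low at every day and was not tested. It had 14, 7 and 9 expected counts at day 0, 8, 8 and 9 at day 4, and 7, 8 and 6 at day 8. The 3 days overlapped, and the depth does not allow a difference of this size to be resolved. The other 10 untested ligands were Wnt1, Wnt2, Wnt3, Wnt5b, Wnt7a, Wnt7b, Wnt8a, Wnt8b, Wnt10a and Wnt11. They had at most 13 expected counts over all 9 samples together, and none exceeded 5 counts in a sample. A count of 0 allows up to 3 counts, which is 0.147 to 0.165 CPM (counts scaled to sample depth) here.

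**Figure D2:**
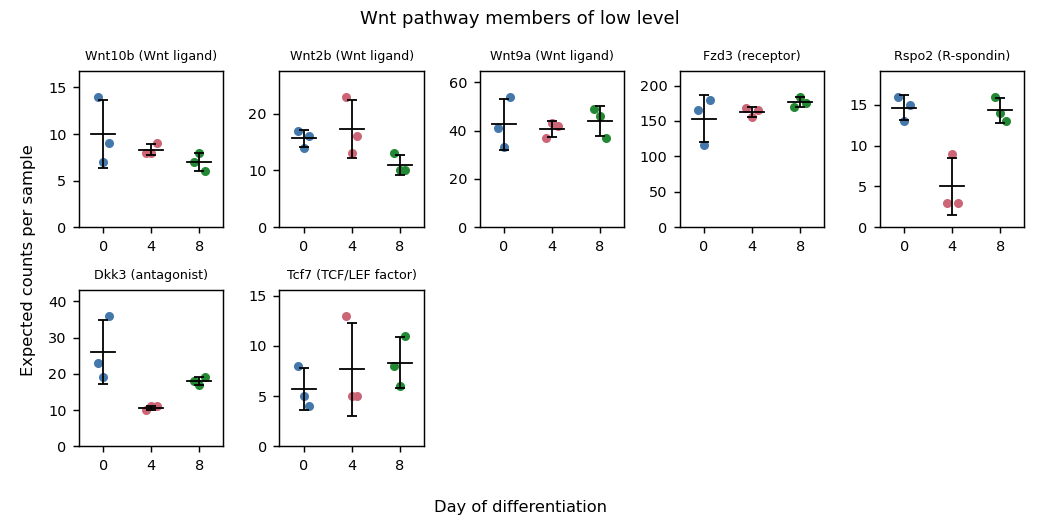
Expected counts per sample of the 7 members below a mean of 1 FPKM that had at least 50 expected counts in all. Points are samples by day of differentiation, and lines with bars are the mean and SD of 3 samples. Rspo2 and Dkk3 were lower at day 4 than at the other days, and the 3 days of Wnt10b, Wnt9a and Tcf7 overlap.

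The antagonists differed among themselves, with calls for Sfrp2, Dkk2 and Dkk3. Sfrp2, a secreted Frizzled-related protein that binds Wnts, made up 96.7% of the summed FPKM of the 6 antagonists. Its 3 samples of day 0 had 43.9, 47.0 and 47.7 FPKM, those of day 4 had 15.0, 12.9 and 10.8, and those of day 8 had 40.0, 38.2 and 39.0. No day 4 sample came near those of the other days, and every day 8 sample was below every day 0 sample. The early log2 fold change of Sfrp2 was -1.77 (SE 0.08, adjusted p = 1.49e-11), a 3.42-fold fall. The late change was 1.64 (SE 0.08, adjusted p = 2.27e-10), a 3.13-fold rise. The whole change of -0.13 was not called (adjusted p = 0.136). Both calls of Sfrp2 held in all 21 alternatives.

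The Dkk genes were expressed at far lower FPKM than Sfrp2. Dkk2, which binds Lrp5 and Lrp6, was at 0.3, 0.42 and 0.37 FPKM at day 0, 0.76, 0.75 and 0.78 at day 4, and 1.06, 0.95 and 1.13 at day 8. The 3 days did not overlap and the level was higher at each later day. Dkk2 rose in the early phase (log2 fold change 1.15, SE 0.19, adjusted p = 4.72e-05) and over the whole process (1.65, SE 0.18, adjusted p = 4.57e-07), and its late change of 0.50 was under 2-fold. Dkk3, a divergent member of the family, was counted among the antagonists by its symbol alone. It had 23, 19 and 36 expected counts at day 0, 10, 11 and 11 at day 4, and 18, 17 and 19 at day 8. One day 0 sample was well above the others, and the day 4 samples were below all of them. Its early log2 fold change was -1.23 (SE 0.30, adjusted p = 0.00182). Without replicate 3 of day 0 the change was -0.96 and no longer called. Dkk1, Sfrp1 and Sfrp4 were not tested, with 7.3, 12.35 and 26 expected counts over all samples.

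Ligands and antagonists were set against each other by their summed FPKM in each sample. The 16 ligands summed to 19.7 ± 1.56, 19.2 ± 0.0839 and 20.1 ± 1.33 FPKM on the 3 days in order. The 6 antagonists summed to 47.1 ± 2.13, 13.9 ± 2.13 and 40.5 ± 0.961 FPKM. The log2 ratio of antagonists to ligands was 1.31, 1.26 and 1.20 in the samples of day 0, -0.25, -0.48 and -0.70 at day 4, and 0.96, 0.96 and 1.12 at day 8. On the FPKM scale and with all members, the antagonist sum was above the ligand sum in all 6 samples of day 0 and day 8 and below it in all 3 samples of day 4. As a linear ratio this was 2.39 ± 0.0849, 0.723 ± 0.112 and 2.02 ± 0.13. The sums rest on Sfrp2 and Wnt5a. Without Sfrp2 the log2 ratios were -4.47, -4.28 and -3.80, below 0 at every day and no longer lowest at day 4. Without Wnt5a they were 2.61, 0.90 and 2.67, above 0 at every day. With CPM, which are not per length, they were 0.30, -1.35 and 0.031 ± 0.093, so that the sums were near each other at day 8. No p is given, since the members were chosen with results of these data known.

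**Figure D3:**
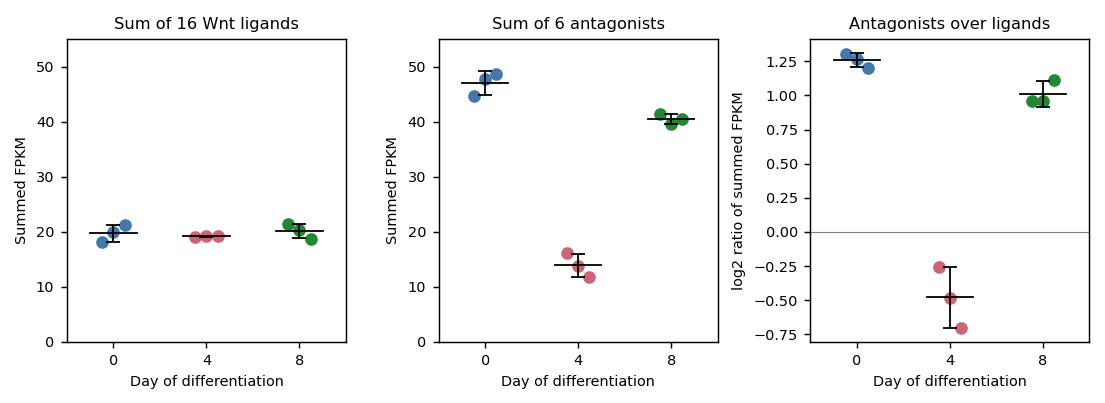
Summed FPKM of the Wnt ligands and of the antagonists, and the log2 ratio of the sums, by day of differentiation. Points are samples, and lines with bars are the mean and SD of 3 samples. The ligand sums of the 3 days overlap between 18.1 and 21.3, and the antagonist sums of day 4 lie between 11.8 and 16.03, below all others.

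Sfrp5, Frzb and Wif1 are antagonists outside the symbol rule. Sfrp5, which was named after its values were seen, was listed at 0, 0 and 0.05 FPKM at day 0, 1.05, 1.27 and 1.13 at day 4, and 0, 0.08 and 0.19 at day 8. It was called higher in the early phase and lower in the late phase. Only its day 4 samples were high enough to pass the filter on low counts, so these calls are a description. Its highest day was the lowest day of Sfrp2, and its FPKM was below that of Sfrp2 in every sample. Adding Sfrp5, Frzb and Wif1 to the antagonists moved the day 4 log2 ratio from -0.48 to -0.36.

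The R-spondins act on the receptor side and were low throughout. Rspo3 was at 0.39, 0.07 and 0.34 FPKM at day 0, 0.35, 0.28 and 0.21 at day 4, and 0.99, 0.88 and 1.17 at day 8. Day 0 and day 4 overlapped, with one day 0 sample far below the rest, and all day 8 samples were higher. Rspo3 rose in the late phase (log2 fold change 1.88, SE 0.34, adjusted p = 0.000297) and over the whole process (1.99, SE 0.34, adjusted p = 7.43e-05). Rspo2 had 16, 13 and 15 expected counts at day 0, 3, 9 and 3 at day 4, and 16, 14 and 13 at day 8. All day 4 samples were below those of the other days. The early log2 fold change of Rspo2 was -1.49 (SE 0.42, adjusted p = 0.0048) and the late one 1.54 (SE 0.42, adjusted p = 0.00692). Without replicate 2 of day 4 these were -2.21 and 2.27. They were smaller, -1.23 and 1.28, without replicate 1 of day 4. Leaving out replicate 3 of day 4 gave -1.24 and 1.295. Both calls of Rspo2 were lost with glmTreat and with limma on log2(FPKM + 1) and on log2(FPKM + 0.1). Rspo1 and Rspo4 had 4.55 and 4 expected counts over all samples and were not tested.

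Among the receptors, Fzd1 had the highest FPKM in every sample of day 0 and the co-receptor Lrp5 in every sample of day 4 and day 8. Its level was 56.5, 52.9 and 58.1 FPKM at day 0, 164, 161 and 141 at day 4, and 91.1, 97.6 and 100.1 at day 8. The 3 days did not overlap, with day 4 highest and day 8 between. Lrp5 rose early on (log2 fold change 1.54, SE 0.07, adjusted p = 4.66e-12), and this call held in all 21 alternatives. The late change was -0.64 (SE 0.06, adjusted p = 5.96e-07) and the whole change 0.90 (SE 0.07, adjusted p = 3.51e-09), both under 2-fold. Its partner Lrp6 was at 20.02 ± 0.282, 23.6 ± 1.47 and 20.7 ± 1.04 FPKM at day 0, 4 and 8. Its early log2 fold change of 0.30 (SE 0.05, adjusted p = 9.08e-05) was under 2-fold, and Lrp6 was not called in any of the 3 comparisons. The share of Lrp5 in the summed FPKM of both co-receptors was 73.6% ± 0.688, 86.8% ± 0.803 and 82.3% ± 0.905 at day 0, 4 and 8.

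The Frizzled receptors changed in different directions. Fzd1 was at 82.0, 73.0 and 82.2 FPKM at day 0, 36.9, 35.3 and 33.5 at day 4, and 68.8, 64.8 and 64.8 at day 8. In FPKM the day 4 samples were the lowest, and the day 8 samples lay below those of day 0. On the CPM scale of the edgeR fit, the day 0 and day 8 samples of Fzd1 overlapped. The early log2 fold change of Fzd1 was -1.10 (SE 0.06, adjusted p = 5.32e-11), a 2.14-fold fall. The late change was 0.95 (SE 0.06, adjusted p = 1.56e-09), a 1.94-fold difference just under the fold threshold. The whole change was -0.15 (SE 0.06, adjusted p = 0.0274) and was not called.

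Fzd4, the receptor that also binds the non-Wnt ligand norrin, was at 3.07, 2.67 and 3.94 FPKM at day 0, 7.40, 6.87 and 6.24 at day 4, and 14.4, 14.6 and 14.2 at day 8. The days did not overlap, and each later day was higher. Fzd4 rose in the early phase (log2 fold change 1.14, SE 0.11, adjusted p = 8.97e-08), in the late phase (1.12, SE 0.09, adjusted p = 7e-08) and over the whole process (2.26, SE 0.10, adjusted p = 9.08e-12), in the end 4.8-fold. It was the only member called higher in all 3 comparisons, which share samples. Fzd8 was at 5.49 ± 0.0346, 3.63 ± 0.275 and 5.28 ± 0.257 FPKM, with log2 fold changes of -0.53 (adjusted p = 2.37e-05) and 0.58 (adjusted p = 2.16e-05) in the early and late phase, both under 2-fold.

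The remaining tested Frizzled genes were not called. Fzd2 was at 41.1 ± 2.64, 32.1 ± 1.34 and 35.5 ± 0.849 FPKM at day 0, 4 and 8. Fzd7 was at 9.76 ± 0.529, 9.05 ± 1.22 and 8.26 ± 0.155 FPKM, and Fzd5 at 4.12 ± 0.507, 4.89 ± 0.332 and 3.8 ± 0.0781 FPKM. Fzd3, a receptor of the planar polarity arm, lay between 0.49 and 0.71 FPKM in all samples. Fzd6 and Fzd9 had 14.78 and 15 expected counts over all samples and were not tested. Within the summed FPKM of the 9 Frizzled genes, the share of Fzd1 was 55.1% ± 0.798, 38.1% ± 0.302 and 49.3% ± 0.697 on the 3 days in order. The share of Fzd2 was 28.7% ± 0.876, 34.7% ± 0.797 and 26.5% ± 0.0556, and that of Fzd4 was 2.24% ± 0.384, 7.39% ± 0.256 and 10.7% ± 0.237. A share depends on the other genes of the sum, so that Fzd2 had its highest share at day 4, where its level was lowest.

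**Figure D4:**
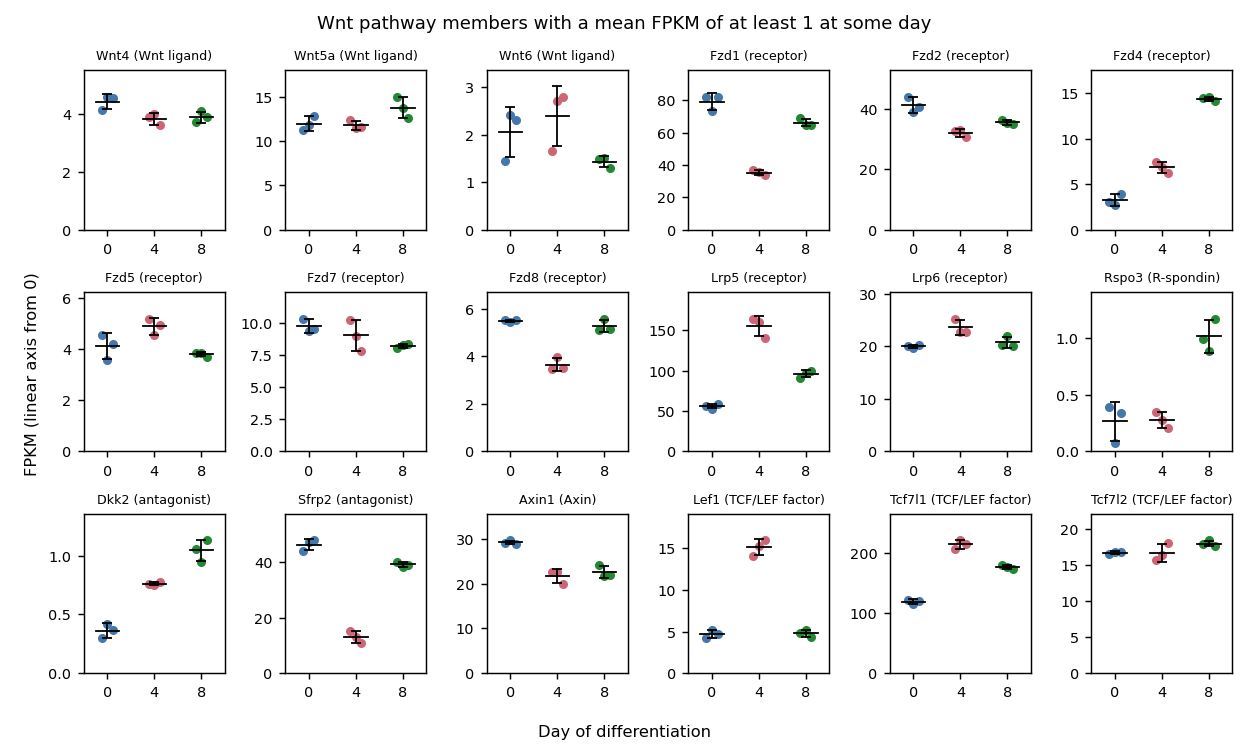
FPKM of the 18 members that reached a mean of 1 FPKM at some day, by day of differentiation and by role, on linear axes from 0 that differ between panels. Points are samples, and lines with bars are the mean and SD of 3 samples. Day 4 is lowest for Sfrp2, Fzd1 and Fzd8 and highest for Lrp5, Lef1 and Tcf7l1, and Fzd4 and Dkk2 are higher at each later day.

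The TCF/LEF factors carry the signal to the genes. Lef1 was at 4.24, 5.20 and 4.77 FPKM at day 0, 14.1, 15.3 and 15.9 at day 4, and 4.82, 5.14 and 4.39 at day 8. The day 4 samples stood apart from all others, and day 0 and day 8 overlapped. Lef1 rose in the early phase (log2 fold change 1.60, SE 0.07, adjusted p = 1.36e-11) and fell in the late phase (-1.50, SE 0.07, adjusted p = 1.72e-10), and both calls held in all 21 alternatives. Tcf7l1, which acts mainly as a repressor in the absence of beta-catenin, was at 123, 115 and 119.8 FPKM at day 0, 207, 221 and 215 at day 4, and 179.9, 176 and 173 at day 8. The 3 days did not overlap, with day 4 highest. Its early log2 fold change was 0.91 (SE 0.05, adjusted p = 4.17e-11), a 1.88-fold difference under the fold threshold.

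Tcf7l1 held 84.6% ± 0.758, 87.0% ± 0.614 and 88.5% ± 0.296 of the summed FPKM of the TCF/LEF factors at day 0, 4 and 8. Tcf7l2 was at 16.8 ± 0.169, 16.8 ± 1.24 and 18.02 ± 0.408 FPKM and was not called. Tcf7 was not tested, with 65 expected counts over all samples. Axin1, the scaffold of the destruction complex, was at 29.2 ± 0.396, 21.6 ± 1.56 and 22.6 ± 1.27 FPKM, with an early log2 fold change of -0.36 (SE 0.06, adjusted p = 2.49e-05) that was not called. Axin2, a feedback inhibitor widely used as a readout of canonical signalling, had 12 expected counts over all 9 samples, with at most 4 in one sample. Its mean was 0.0133, 0.00667 and 0.0267 FPKM at day 0, 4 and 8, so that Axin2 was near the floor at every day. A change among such low counts could not be resolved at this depth.

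Reads that could belong to another gene were estimated by comparing all 50-base stretches of the members with those of other GENCODE vM21 genes. On the same strand at most 3.85% of the stretches of a member (Wnt4) occur in transcripts of another gene. On the opposite strand the share was 16.4% for Fzd5, 13.4% for Lef1, 12% for Sfrp2 and 11.6% for Rspo3, shared with gene models such as Gm26771 for Sfrp2 and Gm43352 for Lef1. Strand use in the counting is not given in the sources used here, so that reads within these shared stretches cannot be told apart from those of the other gene, while the remaining stretches of these 4 genes are not shared in this way.

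Promoter sequences were available from RefSeq (GRCm38.p6) for 27 of the 43 members, with 35 starts in all. The 150 bases before the start are shown for the called members above 1 FPKM that matched, with CG pairs in capitals. They are Sfrp2 (chr3:83766171-83766320, plus strand), Fzd1 (chr5:4758217-4758366, minus strand), Fzd4 (chr7:89404216-89404365, plus strand), Dkk2 (chr3:132085142-132085291, plus strand) and the first of 4 starts of Lef1 (chr3:131110147-131110296, plus strand). Bases just after the start were found in GENCODE transcripts of the same gene for Sfrp2, Fzd4 and Dkk2. For Fzd1 and for every start of Lef1 they were not found, so that the place of these starts is less sure. Lrp5 and Rspo3 are named only.
Sfrp2: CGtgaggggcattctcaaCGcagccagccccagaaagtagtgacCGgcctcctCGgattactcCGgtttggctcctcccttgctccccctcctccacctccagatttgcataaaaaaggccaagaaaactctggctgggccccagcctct
Fzd1: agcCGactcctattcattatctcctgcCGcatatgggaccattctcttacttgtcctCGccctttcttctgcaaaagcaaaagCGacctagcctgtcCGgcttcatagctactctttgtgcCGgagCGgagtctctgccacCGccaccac
Fzd4: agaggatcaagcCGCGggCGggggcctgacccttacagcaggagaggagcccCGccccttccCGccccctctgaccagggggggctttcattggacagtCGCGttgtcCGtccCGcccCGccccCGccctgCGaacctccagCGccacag
Dkk2: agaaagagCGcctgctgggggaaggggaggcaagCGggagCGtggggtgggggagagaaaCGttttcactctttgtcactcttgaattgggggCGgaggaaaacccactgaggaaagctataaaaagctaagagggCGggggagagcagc
Lef1: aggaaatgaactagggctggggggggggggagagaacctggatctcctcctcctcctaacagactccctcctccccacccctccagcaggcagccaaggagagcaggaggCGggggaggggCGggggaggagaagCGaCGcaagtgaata

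These stretches hold 13 CG pairs for Fzd4, 8 for Fzd1, 6 for Dkk2, 5 for Sfrp2 and 4 for Lef1. In the 250 bases before the start, the ratio of observed to expected CG pairs was at least 0.6 in 24 of the 35 member promoters (68.6%) and in 34% of all 32851 promoters of that length. Of the members shown it was 0.751 for Fzd1, 0.755 for Fzd4, 0.64 for Sfrp2, 0.449 for Dkk2 and 0.4 for Lef1. The TCF/LEF core, searched as CTTTGAA or CTTTGAT on both strands, was in 3 of the 35 member promoters (8.57%; Dkk1, Wnt11 and Wnt5b) and in 7.48% of all promoters. Its letters are close to those of other HMG-box factors such as the Sox family. The direct-repeat element of PPAR dimers and the palindrome of C/EBP factors were in 0 of the 35 and in 0.0335% and 0.164% of all promoters. A match is a description of letters in this window, and so is its absence.

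The rest of the pathway was described with 5 lists of 124 further gene symbols, of which 98 were tested. Gpr124, Ccn4 and Ccn5 among them are other names of Adgra2, Wisp1 and Wisp2 and were listed in no sample. In the early phase 6 of the 98 rose and 8 fell (6.12% and 8.16%, beside 9.77% and 7.98% of all tested genes). In the late phase 10 rose and 1 fell (10.2% and 1.02%, beside 4.24% and 2.81%), and over the whole process 13 rose and 7 fell (13.3% and 7.14%, beside 10.3% and 7.7%). Without replicate 3 of day 4 the late count of falls was 2. Their median log2 fold changes were -0.13, 0.10 and -0.02, beside 0.02, -0.01 and -0.02 for all tested genes.

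Of 13 tested genes of Wnt secretion and co-receptors, 2 rose in the early phase (15.4%, beside 9.77% of all tested genes), 1 rose in the late phase (7.69%, beside 4.24%), and 1 rose and 1 fell over the whole process (7.69% each, beside 10.3% and 7.7%). Porcn, the enzyme that attaches the lipid to Wnts, went from 10.7 ± 0.595 to 28.1 ± 1.63 FPKM at day 4 (log2 fold change 1.56, adjusted p = 9.6e-12) and was at 14.1 ± 0.727 FPKM at day 8. Tspan12, a membrane protein that works with Fzd4 in norrin signalling, was at 2.64 ± 0.331, 10.7 ± 1.07 and 33.7 ± 1.64 FPKM. Like Fzd4 it rose in each comparison, with a whole log2 fold change of 3.79 (SE 0.09, adjusted p = 5.21e-15). Of 8 tested extracellular modulators, 2 rose in the early phase (25%, beside 9.77% of all tested genes), 1 rose and 1 fell in the late phase (12.5% each, beside 4.24% and 2.81%), and 2 rose and 1 fell over the whole process (25% and 12.5%, beside 10.3% and 7.7%). Igfbp4, an IGF-binding protein that can also inhibit Wnt signalling, rose from 33.2 ± 2.83 to 151 ± 20.2 and 403 ± 28.7 FPKM. Tpbg, a Wnt-inhibiting membrane protein, fell over the whole process from 24.8 ± 0.656 to 9.22 ± 0.348 FPKM (log2 fold change -1.32, adjusted p = 3.61e-12). Apcdd1, a membrane inhibitor of Wnt signalling that is also in the target list, rose over the whole process from 6.2 ± 0.546 to 12.3 ± 0.12 FPKM (log2 fold change 1.10, adjusted p = 1.25e-08). This call was lost with scaling by library size alone (0.99) and with glmTreat. It was also lost with limma on log2(FPKM + 1) (0.89) and on log2(FPKM + 0.1) (0.98).

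Of 39 tested genes of the beta-catenin arm inside the cell, 2 fell in the early phase (Apc2 and Cxxc4, 5.13%, beside 7.98% of all tested genes) and 2 rose in the late phase (5.13%, beside 4.24%). Over the whole process 3 rose and 1 fell (7.69% and 2.56%, beside 10.3% and 7.7%). Ctnnb1, which encodes beta-catenin, was at 157 ± 2.06, 130.2 ± 4.02 and 142 ± 4.56 FPKM, and Gsk3b, the kinase of the destruction complex, at 29.9 ± 0.936, 22.2 ± 1.05 and 23.4 ± 0.678 FPKM, and neither was called. Cxxc4, a Dishevelled-binding inhibitor, went from 2.94 ± 0.289 to 1.16 ± 0.169 FPKM in the early phase (log2 fold change -1.28, adjusted p = 6.78e-08). Dact1, which also binds Dishevelled, rose over the whole process from 2.7 ± 0.101 to 6.5 ± 0.641 FPKM (log2 fold change 1.37, adjusted p = 1.12e-09). Frat2, a Gsk3-binding protein, was at 0.643 ± 0.146, 1.07 ± 0.256 and 2.1 ± 0.186 FPKM and rose over the whole process (log2 fold change 1.83, adjusted p = 7.17e-07). Its late call (1.02) was lost without replicate 1 of day 4 (0.85) or replicate 2 of day 8.

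Of 26 tested genes of the planar polarity and calcium arm, 1 rose and 1 fell in the early phase (3.85% each, beside 9.77% and 7.98% of all tested genes) and 4 rose in the late phase (15.4%, beside 4.24%). Over the whole process 4 rose and 1 fell (15.4% and 3.85%, beside 10.3% and 7.7%). Plcb2, a phospholipase C that was the early riser and was singled out after its values were seen, was at 0.0533 ± 0.0351, 0.297 ± 0.0651 and 1.36 ± 0.09 FPKM. It rose in all 3 comparisons, with a whole log2 fold change of 4.77 (SE 0.27, adjusted p = 1.47e-10). Camk2a, a calcium-dependent kinase subunit, was at 0.873 ± 0.172, 0.417 ± 0.0473 and 0.943 ± 0.118 FPKM, with an early log2 fold change of -1.02 and a late one of 1.20 (adjusted p = 0.00016 and 7.46e-05). It was the only early fall, and its call was lost without replicate 1 of day 0 (-0.86), replicate 2 of day 4 (-0.96) or replicate 3 of day 4 (-0.99). Of the other calls, that of Celsr3 in the late phase was lost without replicate 1 or 3 of day 4 or replicate 2 or 3 of day 8 (lowest value 0.73). That of Camk2b over the whole process was lost without replicate 3 of day 0 or replicate 1 or 3 of day 8 (lowest value 0.65). Both were singled out after their values were seen. Nfatc1, a calcium-dependent transcription factor, fell over the whole process from 8.52 ± 0.555 to 3.58 ± 0.256 FPKM (log2 fold change -1.16, adjusted p = 1.06e-09). Plcb1, a phospholipase C, rose from 4.14 ± 0.131 to 8.51 ± 0.645 FPKM (log2 fold change 1.16, adjusted p = 1.2e-10).

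Of the genes commonly listed as beta-catenin targets, 16 were tested. In the early phase 2 rose (Lef1 and Twist1, 12.5%) and 5 fell (Id2, Wisp2, Cd44, Ccnd1 and Wisp1, 31.25%), beside 9.77% and 7.98% of all tested genes. In the late phase 2 rose (Fosl1 and Wisp2, 12.5%) and 1 fell (Lef1, 6.25%), beside 4.24% and 2.81%. Over the whole process 4 rose (Fosl1, Twist1, Apcdd1 and Ppard, 25%) and 3 fell (Id2, Cd44 and Ccnd1, 18.75%), beside 10.3% and 7.7%. Ppard was singled out after its values were seen, with a whole log2 fold change of 1.03. Its call was lost with upper-quartile scaling (0.97) and with library size alone (0.91). It was also lost with glmTreat and with limma on log2(FPKM + 1) (0.89) and on log2(FPKM + 0.1) (0.91). Twist1 and Wisp1 were singled out after their values were seen, since their early log2 fold changes of 1.004 and -1.005 lay at the fold threshold. Twist1 was no longer called without replicate 2 of day 0 (0.93), replicate 2 of day 4 (0.98) or replicate 3 of day 8, nor Wisp1 without replicate 1 of day 0 (-0.96), replicate 3 of day 0 or replicate 1 of day 4 (-0.97). Several of these genes answer to other signals as well. Axin2, Notum, Lgr5, Rnf43 and Nkd1, feedback genes of the canonical arm, each had a mean of at most 0.0767 FPKM at every day. Znrf3, a paralog of Rnf43 and also a feedback gene, was higher, at 1.89 ± 0.235, 1.76 ± 0.0643 and 1.43 ± 0.1 FPKM, and was not called.

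Id2, an inhibitor of basic helix-loop-helix factors, was at 16.3 ± 2.67, 1.49 ± 0.396 and 1.07 ± 0.0981 FPKM on the 3 days in order, and its early log2 fold change was -3.38 (SE 0.17, adjusted p = 3.16e-11). Ccnd1, which encodes cyclin D1, went from 138.8 ± 12.8 to 60.03 ± 2.63 and 41.8 ± 2.51 FPKM (early log2 fold change -1.14, adjusted p = 9.06e-11). Wisp2, a secreted protein made by adipocyte precursors, was at 23.4 ± 0.791, 6.57 ± 0.57 and 14.1 ± 1.09 FPKM, and its log2 fold changes were -1.76 and 1.15 in both phases in order (adjusted p = 1.25e-11 and 1.85e-08). Its lowest level was thus at day 4, where Sfrp2, Fzd1 and the preadipocyte marker Dlk1 were also lowest. The share of all genes that were lowest at day 4 was not counted. Fosl1, a subunit of AP-1, was called in the late and the whole comparison. It rose from 9.62 ± 3.33 FPKM at day 4 to 47.9 ± 4.01 at day 8 (log2 fold change 2.36, SE 0.20, adjusted p = 1.04e-07). Myc was at 37.4 ± 3.14, 27.7 ± 2.63 and 22.2 ± 0.573 FPKM and was not called.

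**Figure D5:**
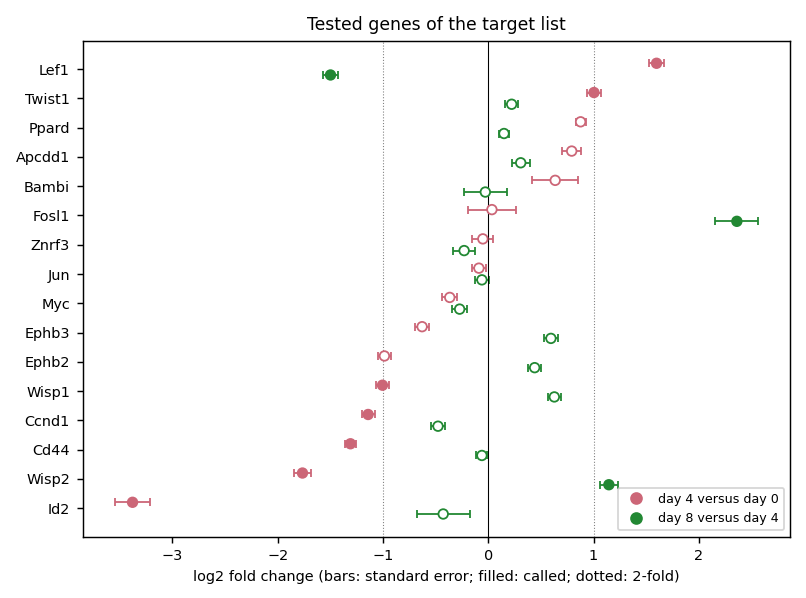
Fold changes of the 16 tested genes of the target list in the early phase (day 4 versus day 0) and the late phase (day 8 versus day 4). Circles are edgeR estimates of the log2 fold change with their standard errors as bars, filled circles are called, and dotted lines mark 2-fold. Id2 has the lowest early value (-3.38) and Lef1 the highest (1.60), and Fosl1 has the highest late value (2.36).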

How the data were processed

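RNA-seq of 3T3-L1 cells at day 0, 4 and 8 was analysed, with 3 samples per day grouped by their titles. Per the study's methods, the authors discarded poor reads, used HISAT/Bowtie2 for mapping and quantified genes with RSEM. The genome build and strand setting are not given in the sources used here. The authors deposited RSEM expected counts, which are not normalized and of which 29.8% are not whole, and FPKM values, scaled to gene length and sample depth. The deposited files list only genes with an FPKM above 0, so that a gene missing from a sample was taken as 0. The deposited gene lengths entered no test. The methods name an Illumina HiSeq platform, whereas the labels name a BGIseq500 kit.

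Expected counts were rounded and fitted in R 4.3.3 with edgeR 4.0.16 (filterByExpr by day, TMM, glmQLFit and glmQLFTest, all 9 samples, 1 coefficient per day, no covariate). Adjustment was by Benjamini-Hochberg over all 13154 genes tested. Calls needed both an adjusted p below 0.05 and more than a 2-fold change. The common biological coefficient of variation was 0.0538. The members, gene lists and tests were chosen with earlier results of these data known. Every member was accounted for, and those with a mean of at least 1 FPKM or a call were described by sample or by mean and SD. Genes of the other pathway lists were named where called and at an average log2 CPM of 1 or more (at most the 4 largest changes per list and comparison), together with Ctnnb1, Gsk3b, Ccnd1 and Myc. Others that the text singles out (Sfrp5, Twist1, Wisp1, Ppard, Celsr3, Camk2b, Plcb2 and the feedback genes) were chosen after their values were seen. One gene of the marker lists is not reported here. Alternatives were RLE, upper-quartile and library-size scaling, DESeq2 1.42.0, edgeR's exact test and glmTreat, limma 3.58.1 on log2(FPKM + 1) and log2(FPKM + 0.1), other filters, no fold threshold, separate fits, a replicate block and leaving out each sample. Scripts were tested on simulated data. Same-numbered samples of different days did not deviate together beyond a mean correlation of 0.0307 over 9 pairs.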

Additional observations from a re-analysis of the deposited data

How the results depend on the processing

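No called direction of a member turned under any alternative, and Sfrp2, Lrp5 and Lef1 kept their calls throughout. The member counts were 4 higher and 4 lower in the early phase, 4 and 1 in the late phase, and 3 and 0 over the whole process. With glmTreat, which tests against a fold change of 2, 2 were higher and 1 lower early, and 1 higher late. With limma on log2(FPKM + 1), which understates changes of low genes, 2 were higher and 2 lower early, 1 higher late and 1 higher over the whole process, and with log2(FPKM + 0.1) 2 were lower early. With at least 10 counts in every sample 2 were higher late, since Rspo2 and Rspo3 were then not tested. With no fold threshold 7 were higher and 7 lower early, 10 and 6 late, and 9 and 2 over the whole process.

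For the other pathway genes, no fold threshold gave 29 higher and 47 lower early, 43 and 18 late, and 34 and 34 over the whole process. Their late count of 10 higher became 4 with glmTreat, 3 with limma on log2(FPKM + 1) and 6 with at least 10 counts in every sample. The late count of 1 lower became 2 with library size alone, 2 with no filter, 0 with limma on log2(FPKM + 1) and 0 with at least 10 counts, and ranged from 1 to 2 when single samples were left out. The early count of 8 lower became 4 with limma on log2(FPKM + 1), the whole count of 13 higher 6 with limma on log2(FPKM + 1), and the whole count of 7 lower 4 with glmTreat.

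The log2 antagonist to ligand ratio of 1.26, -0.48 and 1.01 at day 0, 4 and 8 became 0.30, -1.35 and 0.031 with TMM-scaled CPM, which are not per length. It was -4.47, -4.28 and -3.80 without Sfrp2, and 2.61, 0.90 and 2.67 without Wnt5a. Day 4 was lowest in all of these but the one without Sfrp2.

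The replicate numbers were not taken to pair the samples. With the replicate number as a block, 4 members were higher and 4 lower early, 4 and 1 late, and 3 and 0 over the whole process. Scaling by library size alone moved the median log2 fold change of all genes over the whole process from -0.02 to -0.13. Depth limits the 20 untested members and the calls of Rspo2, Dkk3 and Rspo3, which rest on at most 56 expected counts in a sample.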
